A study of Homo sapiens with 14 samples.

Results

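The 32 genes described here belong to the amino-acid stress response driven by the transcription factor ATF4, together with the cytosolic aminoacyl-tRNA synthetases that this factor is known to induce. They were taken by name from a list, and the list was chosen with earlier results of these data known. It held 10 stress regulators, 6 enzymes of serine, one-carbon and asparagine synthesis, 4 amino-acid transporter genes and 12 tRNA synthetases. All 32 were among the 23040 genes measured, and all 32 were among the 13427 genes that reached 1 RPKM (reads per kilobase of transcript, scaled to the reads of the library) in at least 2 libraries. Of these 32, 3 reached that level through Panc-1 alone (STC2, VLDLR and PHGDH), and since they had to be higher there, tests between the lines are given for the other 29 only. RNA was sequenced from Panc-1 and AsPC-1, both human pancreatic cancer cell lines. Each line was given EGF (epidermal growth factor, 50 ng/ml) for 1, 5 or 24 h, ANG (angiogenin, also named hRNase5, 1 µg/ml) for 1, 5 or 24 h, or no factor (mock). Stock cultures grew with 10% fetal bovine serum and the treated cells were without serum. The labels give no time for the mock libraries and do not say whether the mock cells were without serum. Each of the 14 groups is 1 library, so no condition is repeated within a line. All p-values below measure the spread between these libraries and not between repeats of a condition. In the tests of time, the EGF and ANG libraries of both lines stood in for repeats, so a difference between the factors over time counts as spread.

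When amino acids run short, uncharged tRNA activates the kinase GCN2, which phosphorylates the initiation factor eIF2. General translation then falls while the ATF4 message is translated better, and ATF4 protein, paired with a C/EBP partner, binds C/EBP-ATF response elements in the genes of amino-acid uptake, synthesis and tRNA charging. DDIT3 (CHOP) and TRIB3, themselves targets, act back on the pathway, which is known in pancreatic cancer for keeping cells supplied with amino acids in poor medium.

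The estimated depth was 11.2 to 16.9 M reads for Panc-1 libraries. It was 18.9 to 23.9 M reads for those of AsPC-1. Genes shorter than 400 bases took 5.06% to 16.3% of the Panc-1 reads and 5.25% to 17.1% of the AsPC-1 reads, and since RPKM values are relative to all reads, this share bears on every gene. The epithelial markers KRT8, KRT18, KRT19, EPCAM and CDH1 reached 1 RPKM in both lines (5 of 5, with a sum of 896 to 1375 RPKM in Panc-1 libraries and 1880 to 2453 RPKM in those of AsPC-1). Of the 4 blood cell markers, 1 reached 1 RPKM in Panc-1 (LYZ) and 2 in AsPC-1 (LYZ and CD79A). In AsPC-1 LYZ was at 93.8 to 503 RPKM and CD79A at 0.53 to 2.22 RPKM, while PTPRC and CD3E were listed at 0 in all 7 libraries. No endothelial marker of 3 reached 1 RPKM in either line, and of 4 fibroblast markers 0 did in Panc-1 and 1, LUM, in AsPC-1 (26.5 to 46.3 RPKM). In bulk RNA, a change in the share of cells that express a gene and a change in RNA per cell cannot be told apart.

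The core letters of the ATF4 response element, TTGCATCA, were searched on both strands of the RefSeq promoters (GRCh38.p14, 250 bases before to 50 bases after a gene's start), because ATF4 and its partners are known to bind them. Each gene counts once, over all of its listed promoters. A promoter was in the table for 27 of the 32 genes; PSPH, SHMT2, SLC7A11, LARS and YARS had none there. The letters stood in 7 of these 27 (25.9%), against 295 of all 27305 genes in the table (1.08%). The 7 were CHAC1 and the synthetases AARS, CARS, IARS, MARS, NARS and TARS. The 6 of these that rose in AsPC-1 at 24 h are shown around the match, 5′ to 3′ on the strand of the gene, with the matching letters in capitals.
CHAC1 (chr15:40953242-40953289, plus strand): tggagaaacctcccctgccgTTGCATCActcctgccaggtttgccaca
CARS (chr11:3057398-3057445, minus strand): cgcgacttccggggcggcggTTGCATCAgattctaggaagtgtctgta
TARS (chr5:33440947-33440994, plus strand): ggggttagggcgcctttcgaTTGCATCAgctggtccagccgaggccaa
AARS (chr16:70289666-70289713, minus strand): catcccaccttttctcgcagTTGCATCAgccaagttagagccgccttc
MARS (chr12:57488044-57488091, plus strand): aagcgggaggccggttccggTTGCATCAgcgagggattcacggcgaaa
IARS (chr9:92293683-92293730, minus strand): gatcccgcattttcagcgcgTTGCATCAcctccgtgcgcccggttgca

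In CHAC1 and AARS the match began 209 and 187 bases before the start, while in CARS, MARS and IARS it began 2, 4 and 13 bases before it, and in TARS at base 3 after it. The NARS match lay on the opposite strand and began at base 15 after the start. Of the 10 member synthetases with a promoter 6 held the letters, against 0 of 9 other cytosolic synthetases and scaffold genes and 0 of 14 mitochondrial synthetases. Among 15 further ATF4 partners and targets 6 held them (40%), a larger share than among the 27 members, and among 12 genes of the eIF2 kinases and eIF2 control 1 did. With 2 letters left free (TTNCNTCA, which includes every TTGCATCA), matches were found in 12 of the 27 members (44.4%), against 4797 of the 27305 genes (17.6%); the added genes were ATF3, ASNS, SLC7A1, SLC3A2 and GARS. By these looser letters 7 of the 10 member synthetases matched, against 1 of the 9 other cytosolic synthetases and scaffold genes and 4 of the 14 mitochondrial synthetases (28.6%), and 8 of the 15 further partners and targets did (53.3%). A match describes the letters in this window, and binding was not measured. The members were listed as genes that ATF4 is known to induce, so their larger share of matches was partly set by that choice. These shares were described and not tested.

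At 24 h, set against the 1 h and 5 h libraries of the same line, 18 members fell in Panc-1 and 20 rose in AsPC-1; 12 of the 32 did both, and 6 passed in neither line. In Panc-1, 0 of 32 rose and 18 fell at 24 h (all genes tested: 16.0% higher and 17.0% lower), with a median difference of -0.52 on the log2(RPKM + 1) scale, against a median of 0.00 over all genes. In AsPC-1, 20 of 32 rose and 2 fell (all genes tested: 29.8% higher and 19.4% lower), with a median of 0.70, against 0.06 over all genes. The difference between the lines was itself past the threshold (limma, adjusted p under 0.05 over all genes tested) for 25 of the 29 genes that reached 1 RPKM in at least 2 libraries of each line. All 25 had the lower 24 h change in Panc-1 and 0 the higher (all 11107 genes that reached this level in each line: 27.7% and 17.6%). The 12 genes that fell in Panc-1 and rose in AsPC-1 were 37.5% of the members, against 991 of all 13427 genes (7.38%). Another 2 fell in both lines, 4 fell in Panc-1 without passing in AsPC-1, and 8 rose in AsPC-1 without passing in Panc-1.

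The mock library, which received no factor, lay on the side of the 24 h libraries in both lines. In Panc-1 mock and both 24 h libraries were below all 4 libraries of 1 h and 5 h for 26 of the 32 genes (all genes: 20.9%). They were above all 4 for 2 genes, PHGDH and WARS (all genes: 25.4%). In AsPC-1 they were above all 4 for 20 of the 32 (all genes: 31.5%) and below for 1, PHGDH (all genes: 19.4%). For these genes the contrast lay between the 1 h and 5 h libraries and the other 3 libraries of the line. Pooled over the lines, 0 genes rose and 2 fell at 24 h, SLC7A5 and SLC3A2 (all genes: 8.82% and 6.40%).

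The counts in Panc-1 depended on single libraries: 8 genes fell without the ANG 24 h library, 10 without EGF 24 h, 11 without ANG 5 h and 11 without EGF 1 h. The 8 that fell in every one of the 12 leave-outs were ATF3, ATF5, DDIT3, CHAC1, SESN2, STC2, SLC7A11 and SLC3A2. In AsPC-1, 17 of the 22 calls held in every leave-out. For the difference between lines 18 of 25 did. Both lines share an estimate of spread in this fit. Some Panc-1 calls were lost while their estimates hardly moved, and the reason was not tested. Over the leave-outs the Panc-1 estimate was -1.80 to -1.66 for TRIB3 and -0.83 to -0.70 for MTHFD2. For SHMT2 it moved more, from -0.63 to -0.33. Over all genes, 4007 were higher and 2603 lower at 24 h in AsPC-1, and with each library centred on its median 3158 were higher and 3883 lower. For the difference between lines the split of these 11107 genes was 1958 higher and 3072 lower, and 3012 and 2492 when centred. When centred, the members gave 0 higher and 15 lower in Panc-1, 18 and 3 in AsPC-1, and 0 and 20 for the difference. Pooled over the lines all genes gave 1184 higher and 859 lower, and 994 and 1266 when centred. Centring moved the median of all genes by -0.14 in AsPC-1 and 0.16 for the difference.

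**Figure D1:**
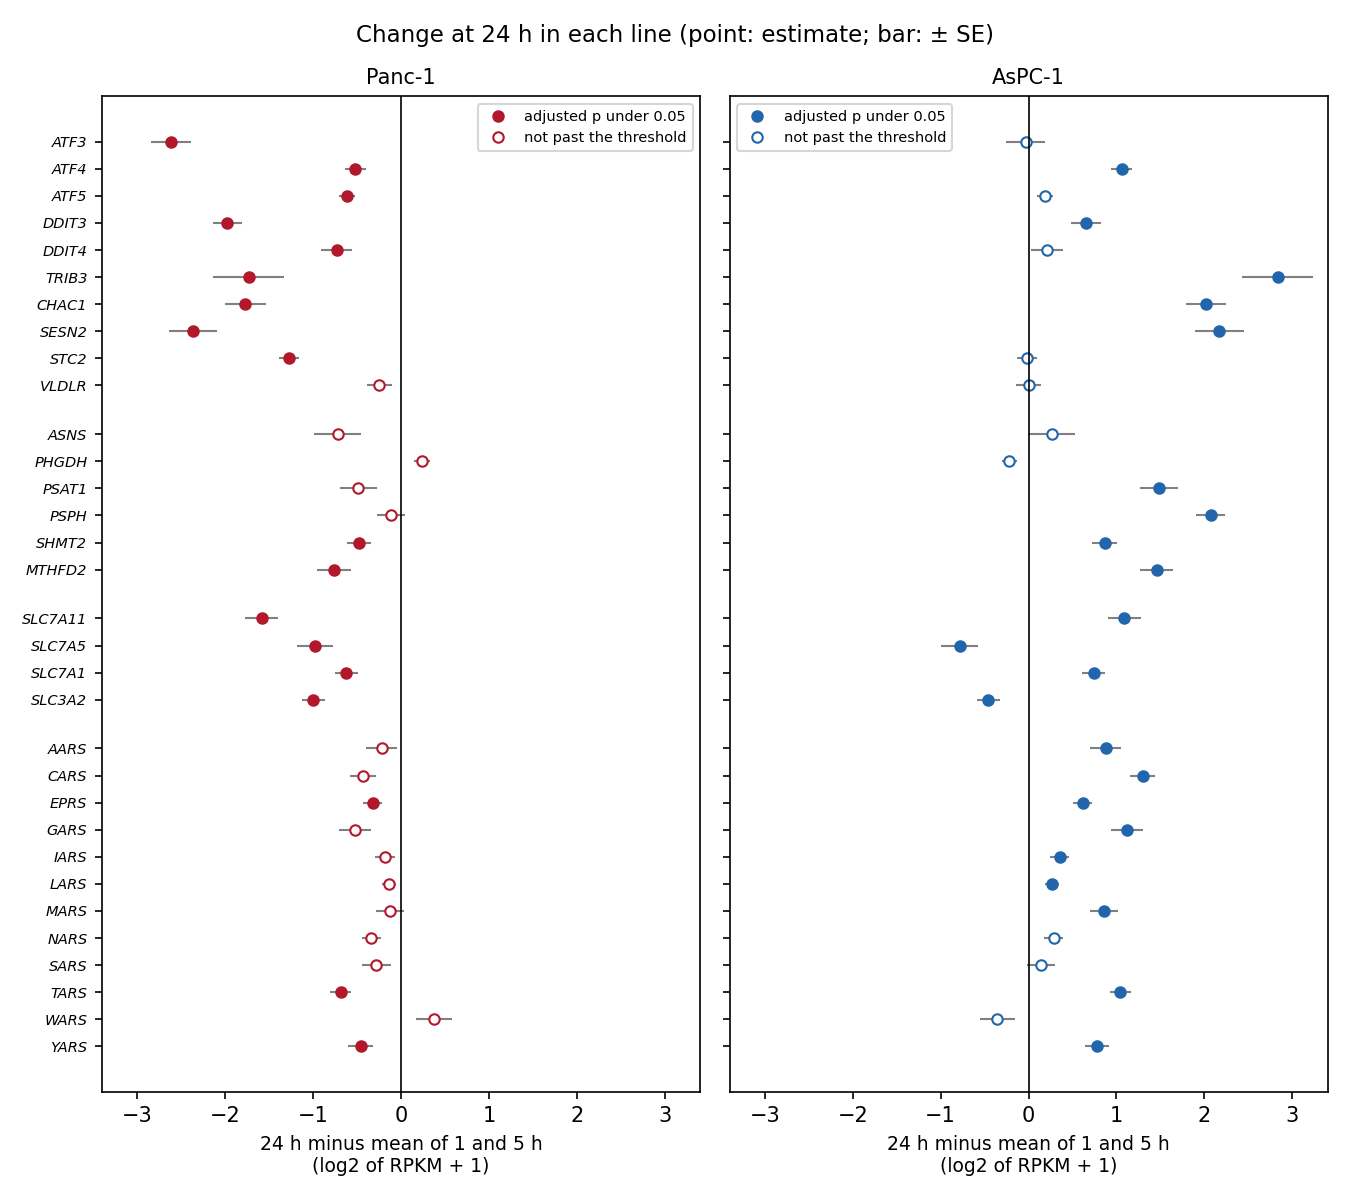
Change at 24 h against the mean of 1 h and 5 h in Panc-1 (left) and AsPC-1 (right), in log2(RPKM + 1) units, for each of the 32 genes; points are limma estimates, bars are ± SE, and filled points passed the threshold. The filled points lie left of 0 in Panc-1 (18 genes) and, apart from SLC7A5 and SLC3A2, right of 0 in AsPC-1 (20 genes).

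Of the 10 stress regulators, 9 fell at 24 h in Panc-1 (all genes: 17.0%) and 5 rose in AsPC-1 (all genes: 29.8%). ATF4 itself (chr22:39916569-39918691, hg19), the transcription factor of the pathway, was measured in Panc-1 at 61.5 RPKM in mock, 93.8 (EGF) and 82.1 (ANG) at 1 h, 74.0 (EGF) and 79.5 (ANG) at 5 h, and 58.7 (EGF) and 55.4 (ANG) at 24 h. In AsPC-1 its level was 52.2 RPKM in mock, 36.3 (EGF) and 31.5 (ANG) at 1 h, 29.6 (EGF) and 28.3 (ANG) at 5 h, and 82.4 (EGF) and 53.6 (ANG) at 24 h. The 24 h and mock libraries were thus the lowest 3 of Panc-1 and the highest 3 of AsPC-1, with AsPC-1 EGF 24 h above every other AsPC-1 library. The 24 h change was -0.52 ± 0.12 (adjusted p = 0.0155) in Panc-1 cells and 1.06 ± 0.12 (adjusted p = 0.000372) in AsPC-1, and the difference between lines was -1.58 ± 0.17 (adjusted p = 0.00041). The Panc-1 call was lost without ANG 5 h, ANG 24 h, EGF 1 h or EGF 24 h of that line (adjusted p up to 0.15). ATF4 is known to be controlled mainly through translation, which these RNA levels do not measure.

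TRIB3 (chr20:361308-378203), a pseudokinase that binds ATF4 and restrains it, had levels in Panc-1 of 31.98 RPKM in mock, 128 (EGF) and 112 (ANG) at 1 h, 122 (EGF) and 117 (ANG) at 5 h, and 38.8 (EGF) and 32.3 (ANG) at 24 h. TRIB3 in AsPC-1 was at 21.4 RPKM in mock, 6.16 (EGF) and 5.25 (ANG) at 1 h, 4.78 (EGF) and 4.92 (ANG) at 5 h, and 95.9 (EGF) and 19.5 (ANG) at 24 h. The 4 libraries of 1 h and 5 h lay far above the other 3 in Panc-1 and far below them in AsPC-1. TRIB3 changed at 24 h by -1.73 ± 0.41 (adjusted p = 0.0161) in Panc-1 and 2.83 ± 0.41 (adjusted p = 0.00105) in AsPC-1, with a difference of -4.56 ± 0.57 (adjusted p = 0.000815). In AsPC-1 the change was 1.75 without the EGF 24 h library. In Panc-1 the call was lost without any 1 of the 6 treated libraries of that line, though the estimate stayed at -1.80 to -1.66 over all leave-outs. Within AsPC-1 the highest library was 20.1 times the lowest, the widest range among the 29 genes that reached 1 RPKM in 2 AsPC-1 libraries.

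SESN2 (chr1:28586006-28609002), which senses leucine and restrains mTORC1, was likewise split by time. Its Panc-1 levels were 16.6 RPKM in mock, 143 (EGF) and 92.9 (ANG) at 1 h, 109 (EGF) and 92.2 (ANG) at 5 h, and 24.2 (EGF) and 16.6 (ANG) at 24 h. SESN2 levels in AsPC-1 were 7.55 RPKM in mock, 2.83 (EGF) and 2.22 (ANG) at 1 h, 3.34 (EGF) and 2.36 (ANG) at 5 h, and 29.0 (EGF) and 8.06 (ANG) at 24 h. No early library overlapped with a 24 h or mock library in either line. The change was -2.36 ± 0.28 (adjusted p = 0.00149) in Panc-1 cells and 2.17 ± 0.28 (adjusted p = 0.000623) in AsPC-1, and the difference -4.53 ± 0.39 (adjusted p = 0.000159).

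CHAC1 (chr15:41245636-41248717), an enzyme that degrades glutathione and the only stress regulator whose promoter held the exact letters printed above, was in Panc-1 at 15.1 RPKM in mock, 58.9 (EGF) and 67.8 (ANG) at 1 h, 56.5 (EGF) and 68.4 (ANG) at 5 h, and 20.9 (EGF) and 14.9 (ANG) at 24 h. CHAC1 in AsPC-1 was at 24.0 RPKM in mock, 7.56 (EGF) and 6.66 (ANG) at 1 h, 4.84 (EGF) and 7.58 (ANG) at 5 h, and 36.3 (EGF) and 24.3 (ANG) at 24 h. Here ANG exceeded EGF in the early Panc-1 libraries, unlike in TRIB3 at 1 h and 5 h, and the early and other libraries did not overlap in either line. CHAC1 changed by -1.77 ± 0.23 (adjusted p = 0.00196) in Panc-1 and by 2.02 ± 0.23 (adjusted p = 0.000381) in AsPC-1, with a difference of -3.79 ± 0.32 (adjusted p = 0.000156).

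DDIT3 (chr12:57910371-57914300), which encodes the CHOP factor linked to cell death under lasting stress, was in Panc-1 at 51.6 RPKM in mock, 257 (EGF) and 203 (ANG) at 1 h, 172 (EGF) and 194 (ANG) at 5 h, and 50.6 (EGF) and 52.0 (ANG) at 24 h. DDIT3 levels in AsPC-1 were 25.1 RPKM in mock, 29.4 (EGF) and 17.1 (ANG) at 1 h, 17.1 (EGF) and 16.3 (ANG) at 5 h, and 41.2 (EGF) and 23.3 (ANG) at 24 h. The Panc-1 groups were far apart, whereas in AsPC-1 the EGF 1 h library lay above mock and ANG 24 h. The 24 h change was -1.97 ± 0.17 (adjusted p = 0.00072) in Panc-1, 0.65 ± 0.17 (adjusted p = 0.0137) in AsPC-1 (not past the threshold without the EGF 24 h library, adjusted p = 0.14) and -2.63 ± 0.23 (adjusted p = 0.000185) for the difference. DDIT3 overlaps MARS on the opposite strand by 63 bases, and whether counting used strand is not given in the sources used here.

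ATF3 (chr1:212738697-212794116), a stress-induced repressor that growth factors also induce, was in Panc-1 at 12.01 RPKM in mock, 104 (EGF) and 51.4 (ANG) at 1 h, 54.0 (EGF) and 45.9 (ANG) at 5 h, and 9.01 (EGF) and 9.03 (ANG) at 24 h. ATF3 was low in AsPC-1, at 1.46 RPKM in mock, 2.65 (EGF) and 1.21 (ANG) at 1 h, 1.66 (EGF) and 1.77 (ANG) at 5 h, and 2.301 (EGF) and 1.23 (ANG) at 24 h. In Panc-1 EGF 1 h was far above the other early libraries, and in AsPC-1 the 7 libraries were in no order of time. ATF3 fell in Panc-1 by 2.61 ± 0.22 (adjusted p = 0.00072), was -0.03 ± 0.22 (adjusted p = 0.94) in AsPC-1, and differed between lines by -2.58 ± 0.32 (adjusted p = 0.000751).

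ATF5 (chr19:50431959-50437193), a factor translated under the same control as ATF4, was in Panc-1 at 14.04 RPKM in mock, 19.0 (EGF) and 17.7 (ANG) at 1 h, 17.8 (EGF) and 16.7 (ANG) at 5 h, and 11.4 (EGF) and 11.1 (ANG) at 24 h. In AsPC-1 ATF5 stood at 2.36 RPKM in mock, 2.19 (EGF) and 2.41 (ANG) at 1 h, 1.95 (EGF) and 1.82 (ANG) at 5 h, and 2.37 (EGF) and 2.66 (ANG) at 24 h. Its Panc-1 groups did not overlap and its AsPC-1 values did. ATF5 fell by 0.61 ± 0.09 (adjusted p = 0.00252) in Panc-1, its value in AsPC-1 was 0.19 ± 0.09 (adjusted p = 0.11), and the lines differed by -0.80 ± 0.12 (adjusted p = 0.00188). It overlaps IL4I1 and NUP62 on the opposite strand, so its reads are uncertain.

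DDIT4 (chr10:74033677-74035797), an mTORC1 inhibitor also known as REDD1, was in Panc-1 at 139 RPKM in mock, 199.6 (EGF) and 205 (ANG) at 1 h, 203 (EGF) and 234 (ANG) at 5 h, and 130.1 (EGF) and 122 (ANG) at 24 h. DDIT4 in AsPC-1 was at 21.4 RPKM in mock, 56.5 (EGF) and 20.3 (ANG) at 1 h, 50.6 (EGF) and 28.4 (ANG) at 5 h, and 79.1 (EGF) and 21.7 (ANG) at 24 h. In Panc-1 time separated the libraries; in AsPC-1 the 3 EGF libraries lay above mock and all 3 ANG libraries. The 24 h change was -0.73 ± 0.18 (adjusted p = 0.0196) in Panc-1 cells and 0.21 ± 0.18 (adjusted p = 0.393) in AsPC-1. The difference of -0.94 ± 0.26 (adjusted p = 0.0212) was lost without AsPC-1 EGF 24 h (-0.59) and without 5 Panc-1 libraries (every treated one other than EGF 5 h, adjusted p up to 0.12). The Panc-1 call itself was lost without the same 5 libraries (adjusted p up to 0.2).

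STC2 (chr5:172741726-172756506), a secreted glycoprotein induced by stress, was in Panc-1 at 20.6 RPKM in mock, 48.7 (EGF) and 47.8 (ANG) at 1 h, 49.2 (EGF) and 51.5 (ANG) at 5 h, and 22.9 (EGF) and 17.1 (ANG) at 24 h. In AsPC-1 STC2 was close to 0, at 0.04 to 0.14 RPKM. STC2 fell in Panc-1 by 1.27 ± 0.11 (adjusted p = 0.00079) at 24 h. VLDLR (chr9:2621793-2654485), a lipoprotein receptor, was in Panc-1 at 1.73 RPKM in mock, 1.62 (EGF) and 1.65 (ANG) at 1 h, 1.99 (EGF) and 1.64 (ANG) at 5 h, and 1.95 (EGF) and 0.79 (ANG) at 24 h. AsPC-1 libraries had 0.01 RPKM of VLDLR, the smallest step in the files, and mock 0. VLDLR did not pass in either line, with -0.24 ± 0.15 (adjusted p = 0.236) in Panc-1. It overlaps FLJ35024 by 581 bases on the opposite strand.

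**Figure D2:**
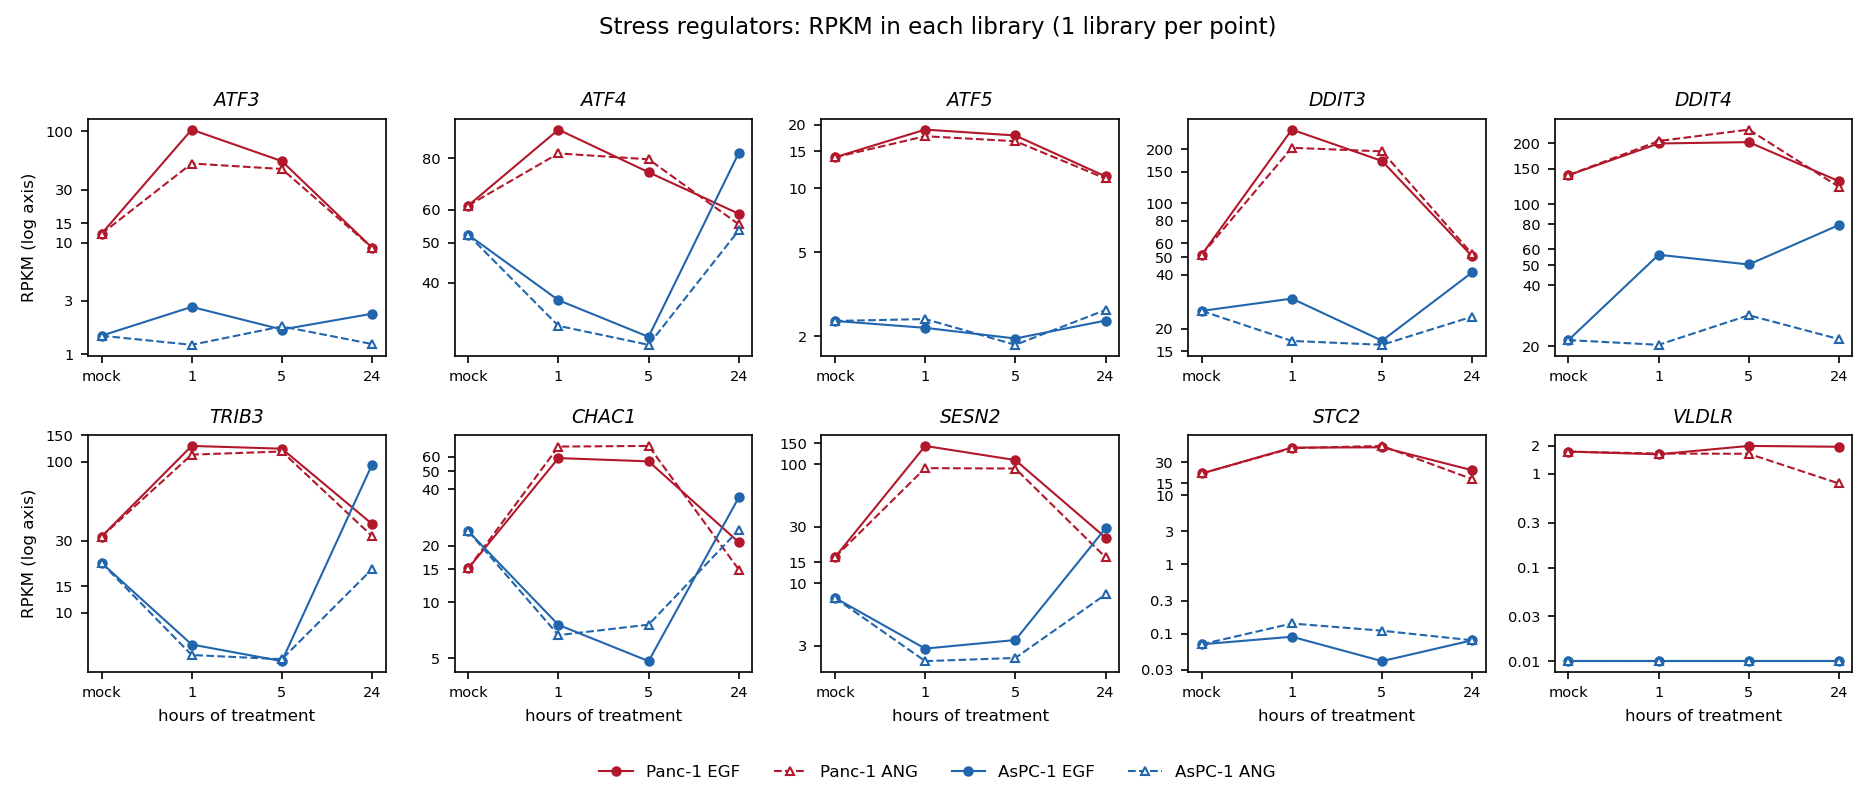
RPKM (log axis) of the 10 stress regulators in mock and at 1, 5 and 24 h; red lines are Panc-1 and blue lines AsPC-1, filled circles EGF and open triangles ANG, and the mock library of a line starts both of its lines. TRIB3, CHAC1 and SESN2 peak at 1 h and 5 h in Panc-1 and have their lowest values there in AsPC-1; AsPC-1 VLDLR in mock, listed at 0, is drawn at 0.01.

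Of the 6 enzymes of serine, one-carbon and asparagine synthesis, 2 fell at 24 h in Panc-1 (SHMT2 and MTHFD2), against 17.0% of all genes tested. In AsPC-1 4 of the 6 rose (PSAT1, PSPH, SHMT2 and MTHFD2), against 29.8% of all genes tested. PHGDH (chr1:120254419-120286849), which opens serine synthesis, was at 48.7 RPKM in mock, 41.4 (EGF) and 41.6 (ANG) at 1 h, 38.5 (EGF) and 42.6 (ANG) at 5 h, and 49.9 (EGF) and 47.4 (ANG) at 24 h in Panc-1. AsPC-1 held 0.07 to 0.35 RPKM of PHGDH, with no library of that line near the lowest Panc-1 value. The 24 h change did not pass in either line, with 0.24 ± 0.09 (adjusted p = 0.0714) in Panc-1 cells and -0.22 ± 0.09 (adjusted p = 0.0743) in AsPC-1, where values this low are compressed by the added 1 RPKM.

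PSAT1 (chr9:80912059-80945009), the aminotransferase of the second step, was in Panc-1 at 42.0 RPKM in mock, 57.1 (EGF) and 55.1 (ANG) at 1 h, 47.4 (EGF) and 55.4 (ANG) at 5 h, and 41.4 (EGF) and 35.1 (ANG) at 24 h. PSAT1 in AsPC-1 was at 11.2 RPKM in mock, 3.49 (EGF) and 3.42 (ANG) at 1 h, 4.27 (EGF) and 4.95 (ANG) at 5 h, and 18.4 (EGF) and 9.02 (ANG) at 24 h. PSPH (chr7:56078744-56119268), the phosphatase that releases serine, was in Panc-1 at 21.6 RPKM in mock, 23.2 (EGF) and 22.5 (ANG) at 1 h, 19.4 (EGF) and 24.0 (ANG) at 5 h, and 18.5 (EGF) and 22.6 (ANG) at 24 h. For both genes the AsPC-1 libraries of 1 h and 5 h were the lowest 4 of that line, and PSPH had no such order in Panc-1. PSPH in AsPC-1 was at 18.1 RPKM in mock, 4.44 (EGF) and 4.44 (ANG) at 1 h, 3.30 (EGF) and 3.86 (ANG) at 5 h, and 25.1 (EGF) and 15.8 (ANG) at 24 h. PSAT1 rose in AsPC-1 by 1.48 ± 0.22 (adjusted p = 0.00112) (0.97 without the EGF 24 h library) and PSPH by 2.07 ± 0.16 (adjusted p = 9.38e-05); in Panc-1 the values were -0.48 ± 0.22 (adjusted p = 0.124) for PSAT1 and -0.11 ± 0.16 (adjusted p = 0.637) for PSPH. The PSPH change in AsPC-1 had the smallest adjusted p of any member in that line.

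MTHFD2 (chr2:74425690-74442424), the mitochondrial one-carbon dehydrogenase, was in Panc-1 at 143 RPKM in mock, 209 (EGF) and 189 (ANG) at 1 h, 198 (EGF) and 208 (ANG) at 5 h, and 125 (EGF) and 111 (ANG) at 24 h. MTHFD2 levels in AsPC-1 were 59.9 RPKM in mock, 32.2 (EGF) and 27.7 (ANG) at 1 h, 28.4 (EGF) and 24.8 (ANG) at 5 h, and 118 (EGF) and 52.8 (ANG) at 24 h. The early libraries were the highest 4 of Panc-1 and the lowest 4 of AsPC-1. SHMT2 (chr12:57623356-57628718), which splits serine into glycine and a one-carbon unit, was in Panc-1 at 23.6 RPKM in mock, 30.3 (EGF) and 29.5 (ANG) at 1 h, 31.6 (EGF) and 30.3 (ANG) at 5 h, and 24.5 (EGF) and 18.9 (ANG) at 24 h. SHMT2 was higher in AsPC-1, at 64.4 RPKM in mock, 42.3 (EGF) and 38.5 (ANG) at 1 h, 44.0 (EGF) and 44.1 (ANG) at 5 h, and 97.1 (EGF) and 61.9 (ANG) at 24 h. The change of MTHFD2 was -0.76 ± 0.19 (adjusted p = 0.0201) in Panc-1 cells and 1.46 ± 0.19 (adjusted p = 0.000694) in AsPC-1. The change of SHMT2 was -0.48 ± 0.14 (adjusted p = 0.0323) in Panc-1 cells and 0.86 ± 0.14 (adjusted p = 0.00164) in AsPC-1 (0.57 without the EGF 24 h library). Both Panc-1 calls were lost without any 1 of the 6 treated Panc-1 libraries. Over all leave-outs the Panc-1 estimates were -0.83 to -0.70 for MTHFD2 and -0.63 to -0.33 for SHMT2. SHMT2 and NDUFA4L2 overlap by 33 bases on opposite strands.

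ASNS (chr7:97481429-97501854), asparagine synthetase and a classical ATF4 target, was in Panc-1 at 110.2 RPKM in mock, 190.4 (EGF) and 149 (ANG) at 1 h, 173 (EGF) and 163 (ANG) at 5 h, and 112 (EGF) and 92.8 (ANG) at 24 h. ASNS in AsPC-1 was at 91.1 RPKM in mock, 92.0 (EGF) and 85.4 (ANG) at 1 h, 115 (EGF) and 115 (ANG) at 5 h, and 201 (EGF) and 73.1 (ANG) at 24 h. In Panc-1 the early libraries were above the rest, but in AsPC-1 the EGF 24 h library was the highest and the ANG 24 h library the lowest. ASNS passed in no contrast, its 24 h change being -0.72 ± 0.27 (adjusted p = 0.078) in Panc-1 cells and 0.26 ± 0.27 (adjusted p = 0.473) in AsPC-1.

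All 4 transporter genes fell at 24 h in Panc-1, whereas in AsPC-1 SLC7A11 and SLC7A1 rose and SLC7A5 and SLC3A2 fell. SLC7A11 (chr4:139085248-139163503), the cystine-glutamate exchanger xCT, was in Panc-1 at 11.5 RPKM in mock, 48.0 (EGF) and 39.6 (ANG) at 1 h, 44.0 (EGF) and 39.6 (ANG) at 5 h, and 17.2 (EGF) and 10.7 (ANG) at 24 h. SLC7A11 in AsPC-1 was at 34.6 RPKM in mock, 14.4 (EGF) and 18.7 (ANG) at 1 h, 18.3 (EGF) and 21.2 (ANG) at 5 h, and 48.2 (EGF) and 32.1 (ANG) at 24 h. Its groups did not overlap in either line and lay in opposite orders. SLC7A1 (chr13:30083551-30169825), a carrier of arginine and lysine, was in Panc-1 at 32.6 RPKM in mock, 54.9 (EGF) and 49.1 (ANG) at 1 h, 57.0 (EGF) and 54.2 (ANG) at 5 h, and 38.7 (EGF) and 30.9 (ANG) at 24 h. SLC7A1 in AsPC-1 was at 36.7 RPKM in mock, 26.0 (EGF) and 22.8 (ANG) at 1 h, 28.8 (EGF) and 26.8 (ANG) at 5 h, and 56.4 (EGF) and 34.4 (ANG) at 24 h. The change of SLC7A11 was -1.58 ± 0.19 (adjusted p = 0.00157) in Panc-1 cells and 1.09 ± 0.19 (adjusted p = 0.00254) in AsPC-1, with a difference of -2.67 ± 0.27 (adjusted p = 0.000298). For SLC7A1 it was -0.62 ± 0.13 (adjusted p = 0.00969) in Panc-1 cells and 0.74 ± 0.13 (adjusted p = 0.00238) in AsPC-1, with a difference of -1.36 ± 0.18 (adjusted p = 0.00101). Without the AsPC-1 EGF 24 h library the AsPC-1 values were 0.66 for SLC7A11 and 0.46 for SLC7A1, and without either 24 h library of Panc-1 the SLC7A1 call in that line was lost (adjusted p up to 0.14).

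SLC7A5 (chr16:87863629-87903100), which imports leucine and other large neutral amino acids, was in Panc-1 at 29.9 RPKM in mock, 53.4 (EGF) and 50.0 (ANG) at 1 h, 54.9 (EGF) and 54.8 (ANG) at 5 h, and 27.4 (EGF) and 25.6 (ANG) at 24 h. SLC7A5 in AsPC-1 was at 8.497 RPKM in mock, 26.9 (EGF) and 21.7 (ANG) at 1 h, 26.3 (EGF) and 24.4 (ANG) at 5 h, and 22.2 (EGF) and 8.64 (ANG) at 24 h. Here the early libraries were high in both lines, and in AsPC-1 the EGF 24 h library kept to the early level while ANG 24 h lay with mock. SLC3A2 (chr11:62623484-62656355), the heavy chain with which SLC7A5 and SLC7A11 form transporters, was in Panc-1 at 78.5 RPKM in mock, 169 (EGF) and 139 (ANG) at 1 h, 156 (EGF) and 147 (ANG) at 5 h, and 80.4 (EGF) and 71.5 (ANG) at 24 h. SLC3A2 in AsPC-1 was at 65.5 RPKM in mock, 133 (EGF) and 107 (ANG) at 1 h, 127 (EGF) and 112 (ANG) at 5 h, and 115 (EGF) and 65.1 (ANG) at 24 h. Both genes fell over the lines together at 24 h, SLC7A5 by 0.88 ± 0.15 (adjusted p = 0.00935) and SLC3A2 by 0.73 ± 0.13 (adjusted p = 0.012). By line, SLC7A5 changed by -0.98 ± 0.21 (adjusted p = 0.0112) in Panc-1 and -0.78 ± 0.21 (adjusted p = 0.0165) in AsPC-1, where it was -0.25 without ANG 24 h and -1.32 without EGF 24 h. SLC3A2 changed by -0.997 ± 0.13 (adjusted p = 0.00197) in Panc-1 and -0.46 ± 0.13 (adjusted p = 0.021) in AsPC-1, where it was -0.18 without ANG 24 h and -0.74 without EGF 24 h. The SLC7A5 call in AsPC-1 was also lost without ANG 1 h, and that of SLC3A2 without ANG 1 h or ANG 5 h. In Panc-1 the SLC7A5 call was lost without either 24 h library (adjusted p up to 0.12). The SLC3A2 difference between lines, -0.54 ± 0.18 (adjusted p = 0.0478), was lost in 10 of 12 leave-outs and was -0.26 without AsPC-1 EGF 24 h. The files list SLC7A5P1 and SLC7A5P2, copies of SLC7A5 that could share its reads.

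Among the 12 tRNA synthetases, which join an amino acid to its tRNA, 3 fell at 24 h in Panc-1 (EPRS, TARS and YARS), against 17.0% of all genes tested. In AsPC-1 9 of the 12 rose (all other than NARS, SARS and WARS), against 29.8% of all genes tested. The files use the older symbols (AARS is now AARS1, and so on). CARS (chr11:3022152-3078681), for cysteine, was in Panc-1 at 123 RPKM in mock, 185 (EGF) and 157 (ANG) at 1 h, 174 (EGF) and 167 (ANG) at 5 h, and 139 (EGF) and 115 (ANG) at 24 h. CARS in AsPC-1 was at 64.8 RPKM in mock, 27.1 (EGF) and 25.2 (ANG) at 1 h, 24.5 (EGF) and 27.9 (ANG) at 5 h, and 80.8 (EGF) and 53.4 (ANG) at 24 h. TARS (chr5:33440898-33468196), for threonine, was in Panc-1 at 147 RPKM in mock, 218 (EGF) and 189 (ANG) at 1 h, 196 (EGF) and 195 (ANG) at 5 h, and 137 (EGF) and 112 (ANG) at 24 h. Both genes had their lowest AsPC-1 values at 1 h and 5 h. TARS in AsPC-1 was at 119 RPKM in mock, 59.8 (EGF) and 58.5 (ANG) at 1 h, 70.0 (EGF) and 55.7 (ANG) at 5 h, and 155 (EGF) and 103 (ANG) at 24 h. CARS rose in AsPC-1 by 1.30 ± 0.14 (adjusted p = 0.000346) and TARS by 1.05 ± 0.12 (adjusted p = 0.000385); in Panc-1 CARS was -0.43 ± 0.14 (adjusted p = 0.0549) and TARS -0.68 ± 0.12 (adjusted p = 0.00542), and the TARS call was lost without ANG 24 h (adjusted p = 0.091). The differences between lines were -1.73 ± 0.20 (adjusted p = 0.000617) for CARS and -1.73 ± 0.17 (adjusted p = 0.000265) for TARS.

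GARS (chr7:30634181-30673648), for glycine, had the highest median RPKM of the 12 in Panc-1, where it was at 187 RPKM in mock, 269.7 (EGF) and 232 (ANG) at 1 h, 269 (EGF) and 256 (ANG) at 5 h, and 197 (EGF) and 161 (ANG) at 24 h. GARS in AsPC-1 was at 123 RPKM in mock, 61.9 (EGF) and 61.9 (ANG) at 1 h, 69.0 (EGF) and 64.1 (ANG) at 5 h, and 194 (EGF) and 102 (ANG) at 24 h. At EGF 24 h the lines met at nearly the same level. GARS rose in AsPC-1 by 1.12 ± 0.18 (adjusted p = 0.00169) (0.69 without EGF 24 h) and was -0.52 ± 0.18 (adjusted p = 0.0591) in Panc-1. AARS (chr16:70286297-70323412), for alanine, was in Panc-1 at 135 RPKM in mock, 151 (EGF) and 145 (ANG) at 1 h, 139 (EGF) and 159 (ANG) at 5 h, and 133 (EGF) and 122 (ANG) at 24 h. AARS in AsPC-1 was at 97.2 RPKM in mock, 54.9 (EGF) and 55.4 (ANG) at 1 h, 54.2 (EGF) and 65.1 (ANG) at 5 h, and 135 (EGF) and 83.3 (ANG) at 24 h. The AARS change was -0.22 ± 0.18 (adjusted p = 0.382) in Panc-1 cells and 0.88 ± 0.18 (adjusted p = 0.00516) in AsPC-1 (0.47 without EGF 24 h).

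MARS (chr12:57881851-57910433), for methionine, was in Panc-1 at 119.8 RPKM in mock, 127 (EGF) and 124 (ANG) at 1 h, 126 (EGF) and 128 (ANG) at 5 h, and 125 (EGF) and 107 (ANG) at 24 h. MARS in AsPC-1 was at 76.5 RPKM in mock, 46.0 (EGF) and 44.4 (ANG) at 1 h, 48.0 (EGF) and 52.1 (ANG) at 5 h, and 112 (EGF) and 68.0 (ANG) at 24 h. YARS (chr1:33240840-33283633), for tyrosine, was in Panc-1 at 79.3 RPKM in mock, 105 (EGF) and 93.1 (ANG) at 1 h, 107 (EGF) and 102 (ANG) at 5 h, and 81.0 (EGF) and 67.1 (ANG) at 24 h. MARS thus kept within a narrow range in Panc-1, while the early YARS values there did not overlap with the rest. YARS in AsPC-1 was at 52.3 RPKM in mock, 35.0 (EGF) and 33.1 (ANG) at 1 h, 36.3 (EGF) and 35.3 (ANG) at 5 h, and 77.9 (EGF) and 47.0 (ANG) at 24 h. In AsPC-1 MARS rose by 0.86 ± 0.16 (adjusted p = 0.00325) and YARS by 0.78 ± 0.14 (adjusted p = 0.00301) (0.49 and 0.45 without EGF 24 h). In Panc-1 MARS was -0.12 ± 0.16 (adjusted p = 0.585) and YARS -0.46 ± 0.14 (adjusted p = 0.0412), the YARS call being lost without any 1 of the 6 treated Panc-1 libraries (adjusted p up to 0.29). YARS overlaps S100PBP by 458 bases on the opposite strand.

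EPRS (chr1:220141942-220220000), which charges both glutamate and proline, was in Panc-1 at 132 RPKM in mock, 157 (EGF) and 141 (ANG) at 1 h, 145 (EGF) and 145 (ANG) at 5 h, and 126 (EGF) and 109 (ANG) at 24 h. EPRS in AsPC-1 was at 121 RPKM in mock, 69.4 (EGF) and 74.4 (ANG) at 1 h, 86.3 (EGF) and 82.8 (ANG) at 5 h, and 135 (EGF) and 107 (ANG) at 24 h. IARS (chr9:94972625-95056038), for isoleucine, was in Panc-1 at 108 RPKM in mock, 116 (EGF) and 108 (ANG) at 1 h, 109.8 (EGF) and 109.6 (ANG) at 5 h, and 103 (EGF) and 92.7 (ANG) at 24 h. The EPRS libraries of 1 h and 5 h were the highest 4 in Panc-1 and the lowest 4 in AsPC-1. IARS in AsPC-1 was at 80.7 RPKM in mock, 66.2 (EGF) and 65.6 (ANG) at 1 h, 68.9 (EGF) and 69.7 (ANG) at 5 h, and 102 (EGF) and 74.0 (ANG) at 24 h. EPRS was -0.32 ± 0.10 (adjusted p = 0.0494) in Panc-1, a call lost in 8 of 12 leave-outs (adjusted p up to 0.34), and 0.61 ± 0.10 (adjusted p = 0.00226) in AsPC-1. IARS rose in AsPC-1 by 0.36 ± 0.11 (adjusted p = 0.029) but not when AsPC-1 EGF 24 h was left out (0.13), nor in 6 other leave-outs. MIR3651 and SNORA84 lie within IARS on the same strand and could share its reads.

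LARS (chr5:145492589-145562294), for leucine, was in Panc-1 at 55.6 RPKM in mock, 56.7 (EGF) and 50.2 (ANG) at 1 h, 52.8 (EGF) and 52.4 (ANG) at 5 h, and 50.8 (EGF) and 45.5 (ANG) at 24 h. LARS in AsPC-1 was at 59.1 RPKM in mock, 45.0 (EGF) and 48.1 (ANG) at 1 h, 48.9 (EGF) and 43.1 (ANG) at 5 h, and 58.2 (EGF) and 53.7 (ANG) at 24 h. NARS (chr18:55267894-55289177), for asparagine, was in Panc-1 at 100.2 RPKM in mock, 123 (EGF) and 113 (ANG) at 1 h, 119 (EGF) and 116 (ANG) at 5 h, and 101 (EGF) and 85.0 (ANG) at 24 h. LARS values of the 2 lines overlapped, and those of NARS did not. NARS in AsPC-1 was at 50.0 RPKM in mock, 34.4 (EGF) and 37.9 (ANG) at 1 h, 41.4 (EGF) and 41.1 (ANG) at 5 h, and 53.9 (EGF) and 41.4 (ANG) at 24 h. The LARS rise in AsPC-1 of 0.27 ± 0.08 (adjusted p = 0.0282) was lost in 6 of 12 leave-outs (adjusted p up to 0.15). NARS did not pass in either line, with -0.34 ± 0.11 (adjusted p = 0.0513) in Panc-1 cells and 0.29 ± 0.11 (adjusted p = 0.0636) in AsPC-1. The difference between lines passed for AARS, MARS and NARS but not without Panc-1 ANG 24 h (adjusted p up to 0.091), and without AsPC-1 EGF 24 h it was -0.68 for AARS, -0.62 for MARS and -0.40 for NARS. For IARS it was lost in 8 of 12 leave-outs (-0.31 without AsPC-1 EGF 24 h) and for LARS in 5.

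SARS (chr1:109756515-109780804), for serine, was in Panc-1 at 31.2 RPKM in mock, 38.1 (EGF) and 33.2 (ANG) at 1 h, 37.6 (EGF) and 36.3 (ANG) at 5 h, and 32.9 (EGF) and 26.8 (ANG) at 24 h. SARS in AsPC-1 was at 24.6 RPKM in mock, 25.1 (EGF) and 24.8 (ANG) at 1 h, 29.4 (EGF) and 28.1 (ANG) at 5 h, and 39.8 (EGF) and 22.0 (ANG) at 24 h. WARS (chr14:100800125-100842680), for tryptophan and also known as an interferon-induced gene, was in Panc-1 at 65.7 RPKM in mock, 52.8 (EGF) and 46.1 (ANG) at 1 h, 52.5 (EGF) and 45.6 (ANG) at 5 h, and 72.1 (EGF) and 57.0 (ANG) at 24 h. SARS was highest at EGF 24 h in AsPC-1, and WARS had its lowest 4 Panc-1 values at 1 h and 5 h, which none of the other 11 synthetases had. WARS in AsPC-1 was at 45.3 RPKM in mock, 71.4 (EGF) and 67.5 (ANG) at 1 h, 84.2 (EGF) and 76.2 (ANG) at 5 h, and 86.3 (EGF) and 38.8 (ANG) at 24 h. Neither gene passed in a time contrast. The value of WARS was 0.38 ± 0.20 (adjusted p = 0.187) in Panc-1 cells and -0.36 ± 0.20 (adjusted p = 0.181) in AsPC-1, and that of SARS -0.28 ± 0.16 (adjusted p = 0.222) in Panc-1 cells and 0.14 ± 0.16 (adjusted p = 0.528) in AsPC-1.

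**Figure D3:**
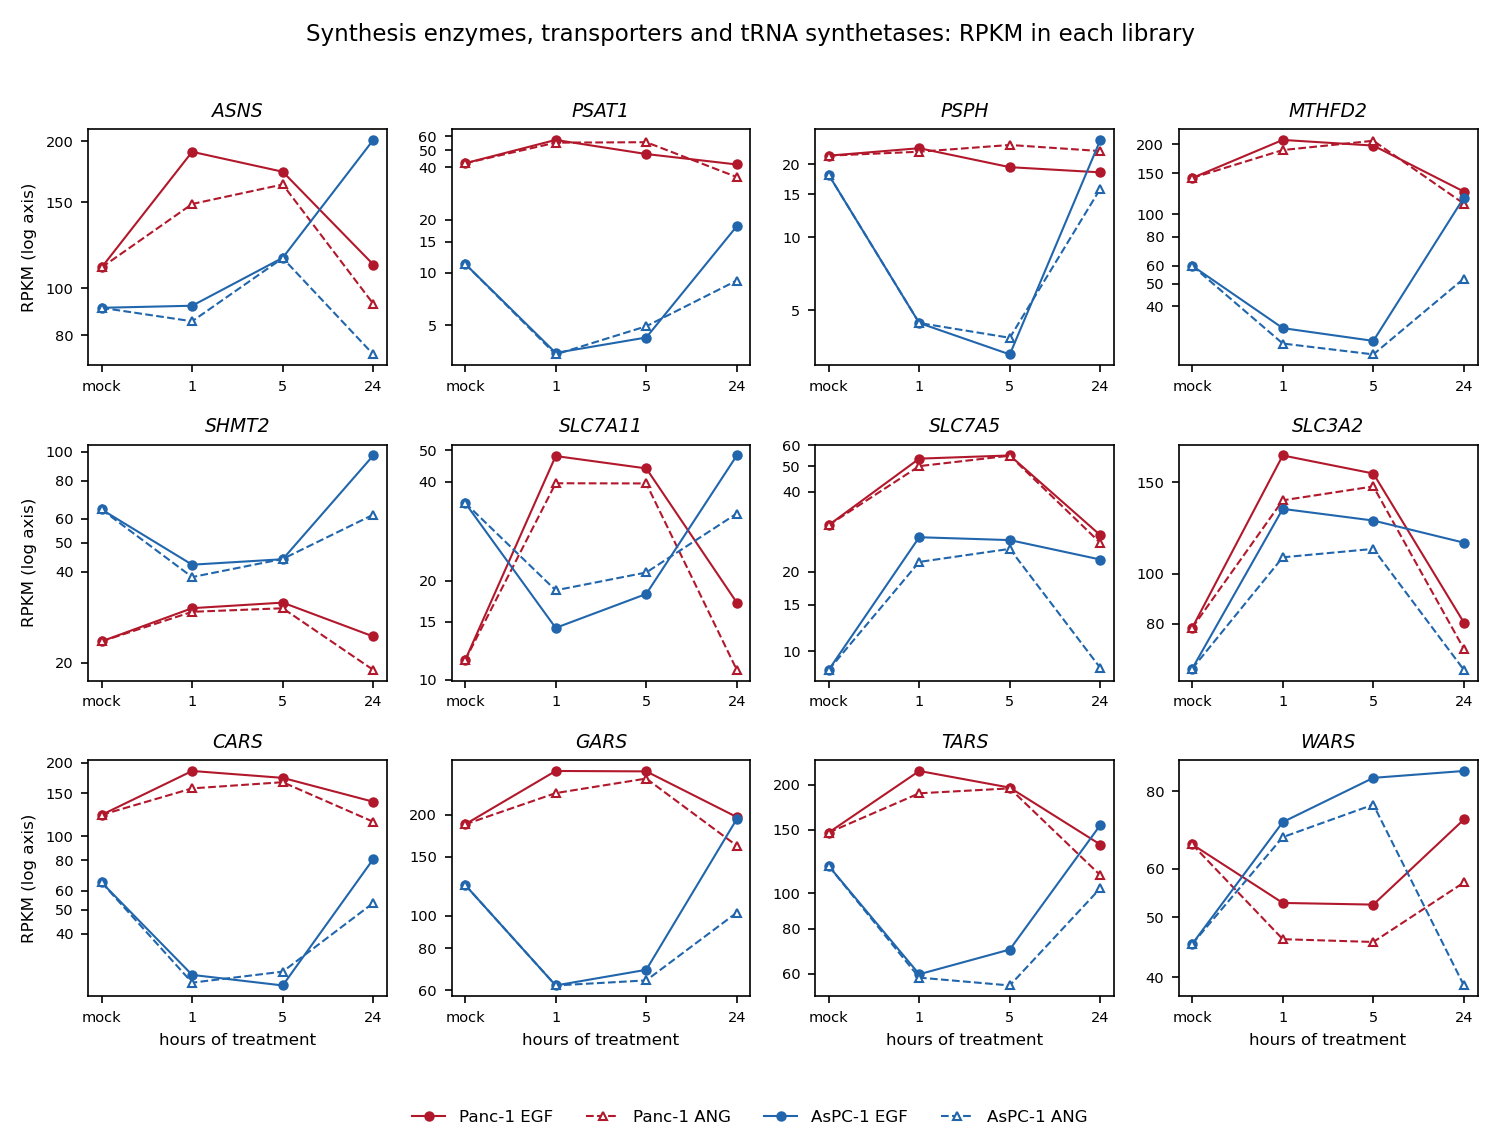
RPKM (log axis) of 5 synthesis enzymes, 3 transporter genes and 4 tRNA synthetases in mock and at 1, 5 and 24 h; colours and symbols are as for the stress regulators (red Panc-1, blue AsPC-1, filled circles EGF, open triangles ANG). PSPH, CARS, GARS and TARS dip at 1 h and 5 h in AsPC-1, and SLC7A5 and SLC3A2 are high at those times in both lines.

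Of 19 further ATF4 partners and targets tested, 0 rose and 4 fell at 24 h in Panc-1, and 11 rose and 0 fell in AsPC-1; the difference between lines was past the threshold for 11, all lower in Panc-1, of the 16 that reached 1 RPKM in each line. SLC38A2, a glutamine and alanine transporter, changed by -0.75 ± 0.18 in Panc-1 and 2.73 ± 0.18 in AsPC-1 (adjusted p = 0.0165 and 5.13e-05), and GOT1, an aspartate aminotransferase, by -1.63 ± 0.17 in Panc-1 (adjusted p = 0.00115). CEBPG, a partner of ATF4, fell by 1.03 ± 0.09 in Panc-1 (adjusted p = 0.00072), and GDF15, a secreted stress cytokine, rose by 1.47 ± 0.12 in AsPC-1 (adjusted p = 0.00012). Of 14 genes of the eIF2 kinases and eIF2 control, 2 rose and 6 fell in Panc-1 and 4 rose and 3 fell in AsPC-1. PPP1R15A (GADD34), which helps to dephosphorylate eIF2, fell by 1.35 ± 0.15 in Panc-1 (adjusted p = 0.00139), and EIF2AK3, the eIF2 kinase PERK, rose by 0.72 ± 0.10 in AsPC-1 (adjusted p = 0.000874).

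Of 11 other cytosolic synthetases and scaffold genes, 0 rose and 3 fell in Panc-1 and 2 rose and 5 fell in AsPC-1, with a median of -0.31 in AsPC-1 against 0.70 for the 12 listed ones. QARS, for glutamine, rose there by 0.64 ± 0.08 (adjusted p = 0.000521), and FARSA, a subunit of the phenylalanine enzyme, fell by 0.55 ± 0.10 (adjusted p = 0.00303). Of 17 mitochondrial synthetases 0 rose and 7 fell in Panc-1 and 5 rose and 4 fell in AsPC-1, with a median of 0.04 in AsPC-1. In Panc-1 the medians were all below 0, at -0.30 for the 12 listed synthetases, -0.16 for the other cytosolic list and -0.12 for the mitochondrial list. A fall in Panc-1 was thus not particular to the 12. MARS2 fell in AsPC-1 by 1.85 ± 0.09 (adjusted p = 2.86e-05) while cytosolic MARS rose. Of 12 interferon-induced genes 5 rose and 1 fell in Panc-1 and 3 rose and 1 fell in AsPC-1, and of 10 hypoxia-induced genes 2 rose and 1 fell in Panc-1 and 3 rose and 4 fell in AsPC-1. How these lists differ from the members was described and not tested.

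Genes of cell division, a list added after the data were seen, moved in the same direction. Of 12 genes of the G2 and M phases all 12 fell at 24 h in Panc-1 (median -1.48) and all 12 rose in AsPC-1 (median 2.80). Their summed level was 312 to 382 RPKM at 24 h in Panc-1, against 899.9 to 1091 RPKM at 1 h and 5 h and 347 RPKM in mock. In AsPC-1 the sum was 562 to 680 RPKM at 24 h, against 63.9 to 151 RPKM at 1 h and 5 h and 784 RPKM in mock. The blood cell markers in AsPC-1 summed to 201 to 479 RPKM at 24 h and 503 RPKM in mock, against 95.4 to 108 RPKM at 1 h and 5 h, nearly all of it LYZ, with PTPRC and CD3E at 0. The part of these genes in the time change of the members was not tested.

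At 24 h in AsPC-1 the EGF library stood above the ANG library for 29 of the 32 genes (all genes: 34.4%), and it was above all 6 other AsPC-1 libraries for 24 of them (all genes: 9.73%), against 2 genes in Panc-1 (all genes: 11.2%). With 1 library on each side these are descriptions. The median log2 difference, EGF minus ANG, was 0.67 over the members and 0.64 over their 12 synthetases, against 0.13 for the other cytosolic synthetases and scaffold genes, -0.10 for the mitochondrial synthetases and -0.10 for all genes. At least 2-fold higher with EGF were 7 members and 0 were lower (all genes: 1.01% and 2.36%), namely TRIB3 by 2.24, DDIT4 by 1.82, SESN2 by 1.73, ASNS by 1.45, SLC7A5 by 1.27, MTHFD2 by 1.15 and WARS by 1.13 on the log2 scale. Set against the AsPC-1 mock library, EGF 24 h was higher for 31 of the 32 genes and ANG 24 h for 8 (all genes: 30.4% for either). These counts include genes near 0: VLDLR was higher by the smallest step in both, and STC2 was at 0.07 RPKM in mock and 0.08 in both. PHGDH, at 0.08 RPKM in mock and 0.17 at EGF 24 h, is in the EGF count only. Against the AsPC-1 mock library the median log2 difference of the members was 0.572 at EGF 24 h and -0.133 at ANG 24 h. For the further ATF4 partners and targets it was 0.544 and -0.079. A higher level at EGF 24 h was thus not particular to the members. At EGF 24 h 5 members were at least 2-fold up (all genes: 2.42%), as were 3 of the 19 further partners and targets. In the same library the 12 interferon-induced genes had a median of -0.44 against ANG 24 h, and genes shorter than 400 bases took 13.4% of the reads, against 11.5% in ANG 24 h.

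In Panc-1 at 24 h EGF was also above ANG for 29 of the 32 genes (all genes: 54.7%), but by less, with a median of 0.24 for members and 0.03 for all genes and with 0 members 2-fold apart (all genes: 0.410% higher and 0.670% lower). Against the Panc-1 mock library EGF 24 h was higher for 18 genes and ANG 24 h for 3 (all genes: 33.3% and 22.5%). At 1 h EGF was above ANG for 28 of the 32 in Panc-1 libraries and 22 in those of AsPC-1 (all genes: 56.0% and 48.7%). At 5 h the count was 20 of 32 for Panc-1 and 19 for AsPC-1 (all genes: 38.9% and 55.5%).

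Over the 6 pairs of line and time, 0 of the 32 genes passed the test of EGF against ANG (all genes: 0.142% higher and 0.0149% lower). Of the 32, 11 had an unadjusted p under 0.05 (all genes: 2146 of 13427). Positive estimates were found for 31 of 32 (all genes: 6032 of 13427), with a median of 0.19 against -0.02 for all genes. The estimate for SESN2 was 0.62 ± 0.18 (adjusted p = 0.193), for SLC3A2 0.31 ± 0.09 (adjusted p = 0.207) and for TARS 0.24 ± 0.08 (adjusted p = 0.235). Taken by line, 0 members passed in Panc-1 or in AsPC-1, as did 0 of all genes, and the test of the difference between lines gave 0 as well. The member nearest to the threshold was DDIT4 in AsPC-1, higher with EGF at each of the 3 times, with 1.35 ± 0.17 (adjusted p = 0.0633); in Panc-1 it was -0.05 ± 0.17 (adjusted p = 0.983). A further contrast was added after the data were seen. It set the EGF minus ANG difference at 24 h in AsPC-1 against that at 1 h and 5 h. With it 0 members passed the threshold (all genes: 0%), and 21 had an unadjusted p under 0.05 (all genes: 1991 of 13427). That contrast was 2.16 ± 0.16 (adjusted p = 0.115) for TRIB3, 1.40 ± 0.18 (adjusted p = 0.12) for ASNS and 1.02 ± 0.13 (adjusted p = 0.12) for WARS. These results do not show that the factors act alike.

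**Figure D4:**
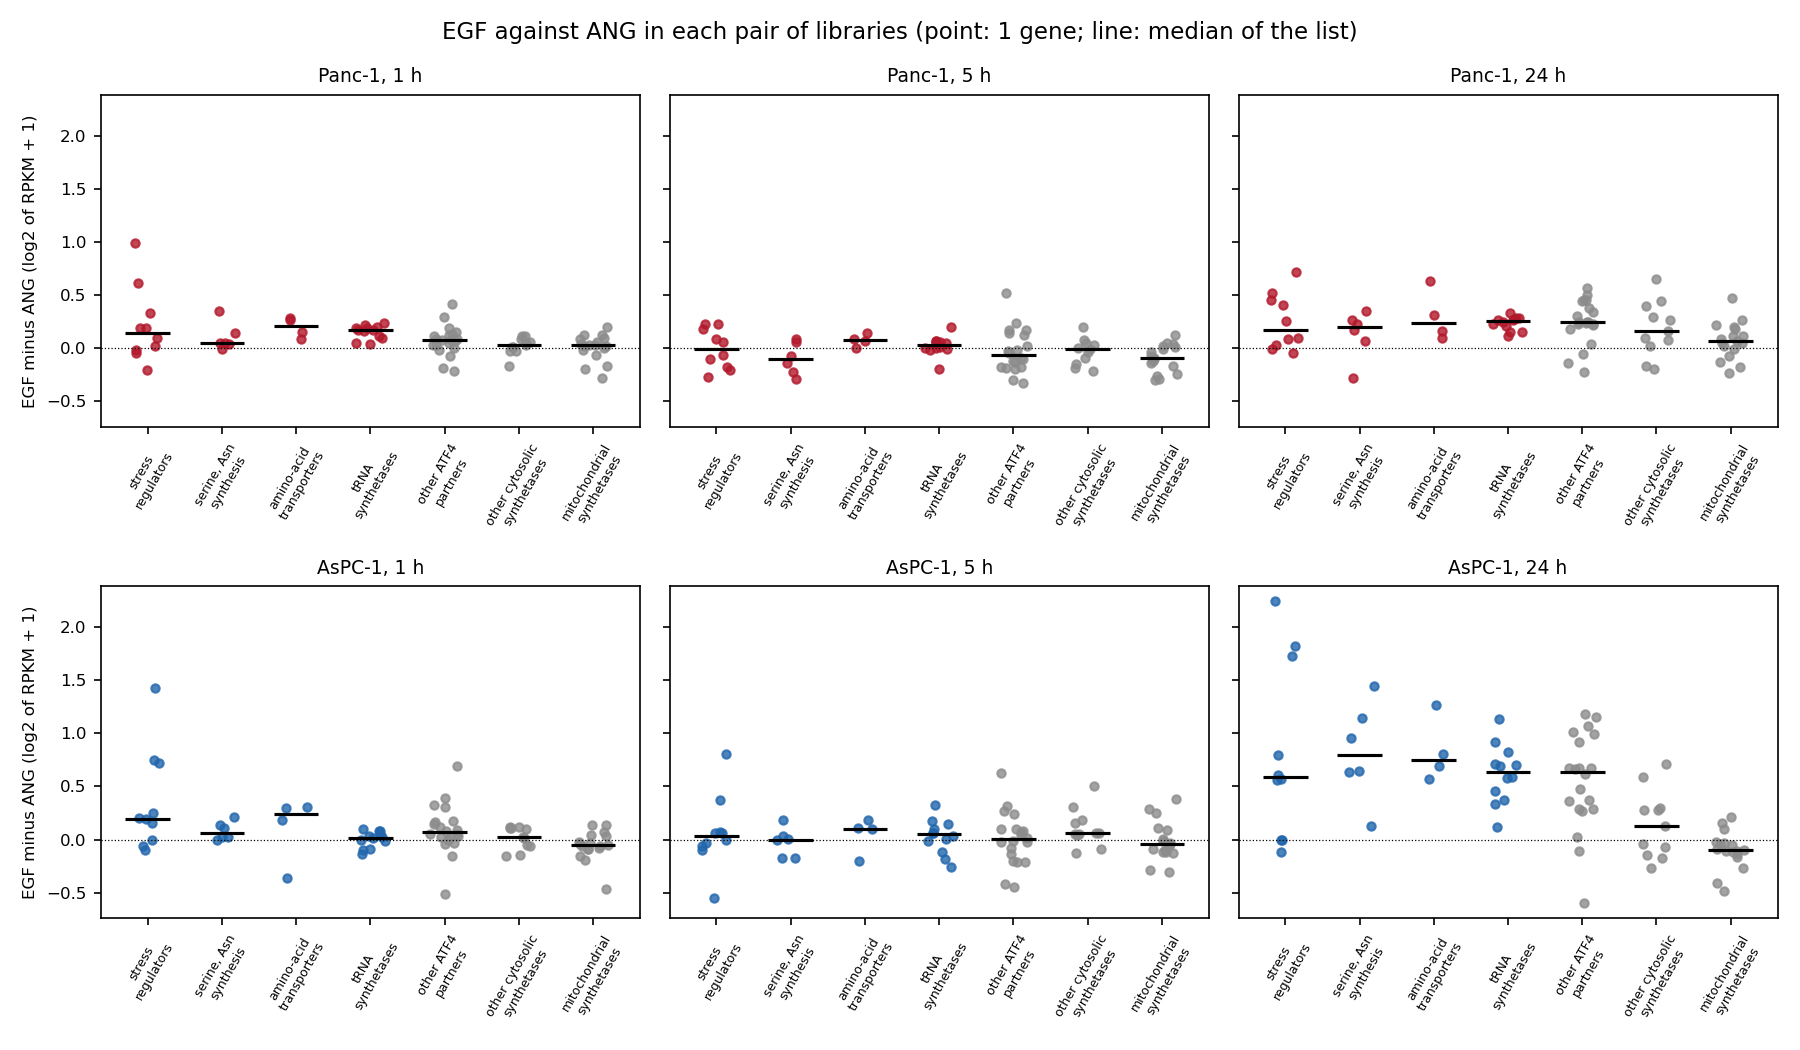
EGF minus ANG, in log2(RPKM + 1) units, for each pair of libraries (top row Panc-1, bottom row AsPC-1; 1, 5 and 24 h from left to right); each point is 1 gene, coloured for the 4 groups of members and grey for 3 other lists, and lines are list medians. The member groups stand higher in AsPC-1 at 24 h (median 0.67 over all members) than in the other panels. In that panel the further ATF4 partners and targets, also grey, lie mostly above 0 too. The other cytosolic and the mitochondrial synthetases lie near 0 there (0.13 and -0.10).

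Against mock, with the 2 lines as the only repeat, SLC3A2 was the 1 member past the threshold, at EGF 5 h (all genes: 0.596% higher and 3.63% lower). Its difference from mock was 0.96 ± 0.22 (adjusted p = 0.0483). SLC7A5 was close to it there, with 1.19 ± 0.28 (adjusted p = 0.0559). The SLC3A2 call was lost in 12 of the 14 leave-outs (adjusted p up to 0.27). At the other 5 conditions 0 members passed (all genes higher and lower: 0.209% and 0.454% at EGF 1 h, 0% and 0% at EGF 24 h, 0% and 0.0819% at ANG 1 h, 0% and 0.112% at ANG 5 h, 0% and 0% at ANG 24 h). Over all genes EGF 5 h gave 80 higher and 487 lower, and 72 and 95 with centred libraries, and EGF 1 h gave 28 and 61, and 19 and 16 when centred. Centring moved the median of all genes by 0.086 to 0.205 in the 6 contrasts with mock. Between 5 h and 1 h 0 members passed (all genes: 0% and 0%).

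Averaged over the conditions, most members had higher RPKM in Panc-1 than in AsPC-1. Over the 7 pairs of libraries at the same condition, 21 of the 29 genes tested between lines were higher in Panc-1 and 1, SHMT2, was lower (the 11107 genes: 36.0% higher and 27.9% lower), with a median of 1.03 against 0.10 for the 11107. The widest gaps on this scale were 3.43 ± 0.43 (adjusted p = 0.000117) for ATF3, 3.04 ± 0.75 (adjusted p = 0.00644) for SESN2 and 2.66 ± 0.34 (adjusted p = 0.000126) for PSAT1. STC2, VLDLR and PHGDH, with the levels given above, are left out of these counts. SHMT2 was -0.98 ± 0.22 (adjusted p = 0.00391). These averages did not describe each condition, and some genes called higher in Panc-1 were lower there at EGF 24 h. In that condition SESN2 was at 24.2 RPKM in Panc-1 and 29.0 in AsPC-1, and TRIB3 at 38.8 and 95.9. ATF3 (9.01 and 2.301) and PSAT1 (41.4 and 18.4) remained higher in Panc-1. Not past the threshold were CHAC1, ASNS, SLC7A11, SLC7A1, SLC3A2, LARS and WARS. The count ranged over 18 to 26 with 1 library left out; ATF4, TRIB3, EPRS and SARS lost their call without any 1 of the 8 libraries of 1 h and 5 h, and SARS without 4 others as well (adjusted p up to 0.081). Of the 11 other cytosolic synthetases and scaffold genes 3 were higher in Panc-1 and 5 lower. Of 16 further ATF4 partners and targets 10 were higher and 3 lower, led by GDF15 (4.99 ± 0.31, adjusted p = 1.27e-06).

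**Figure D5:**
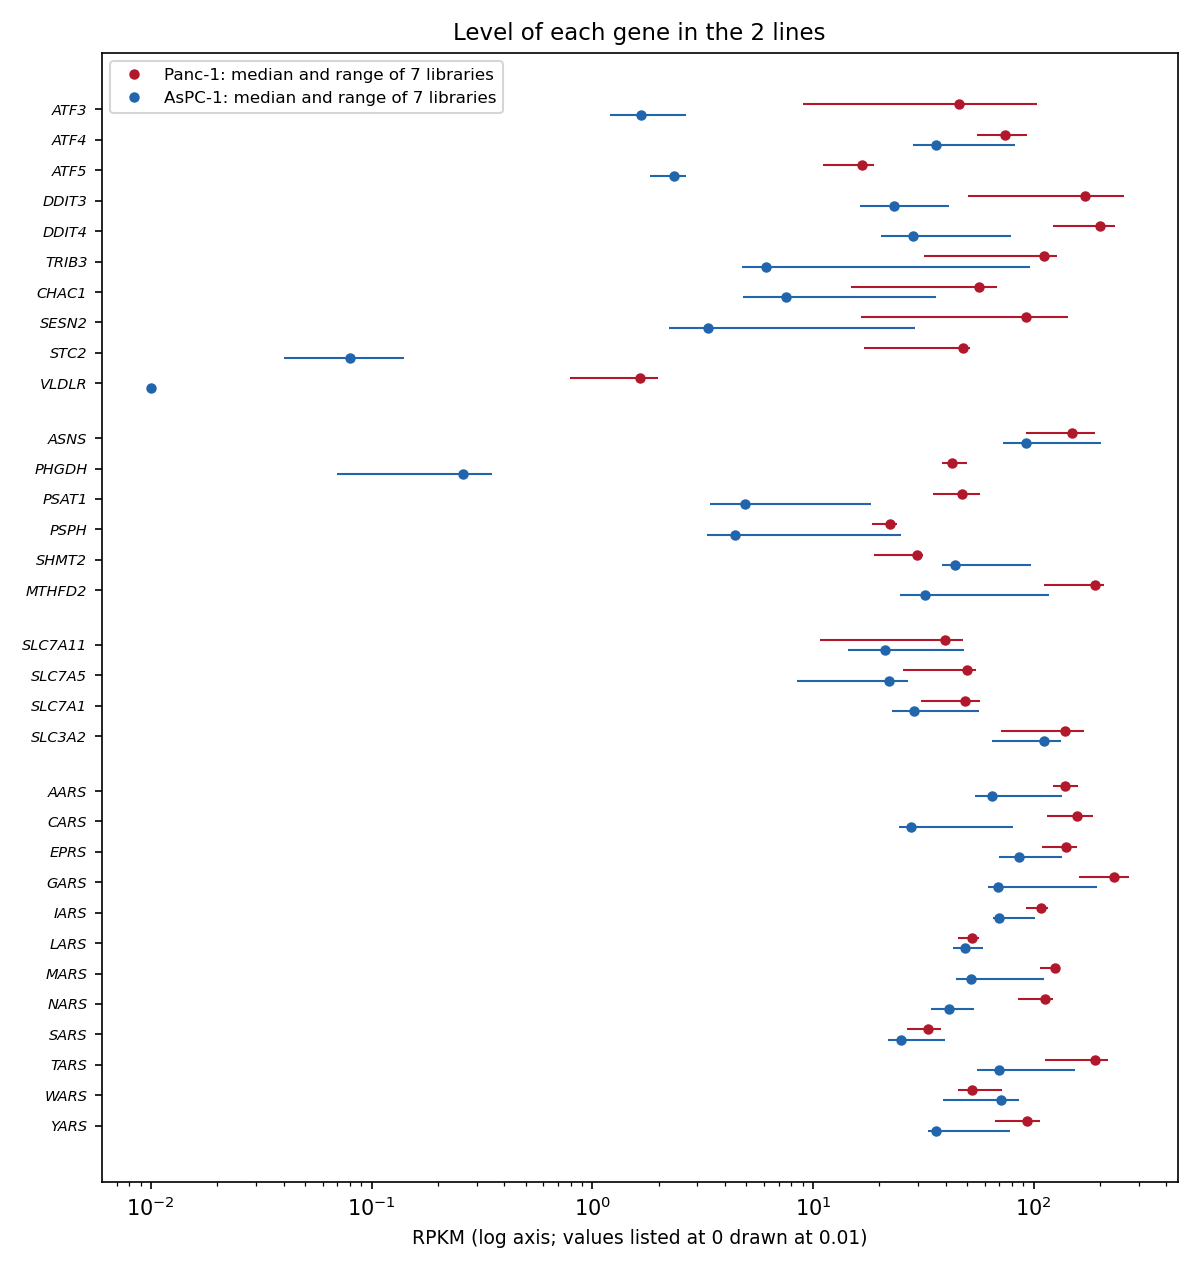
Level of each of the 32 genes in Panc-1 (red) and AsPC-1 (blue) in RPKM on a log axis; points are medians and bars the range of 7 libraries. The ranges are separate for PHGDH, STC2, VLDLR, ATF3, ATF5, DDIT3, DDIT4 and PSAT1, among others, and overlap for ASNS, SLC3A2, LARS and WARS; values listed at 0 are drawn at 0.01.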

How the data were processed

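RNA was extracted from Panc-1 and AsPC-1 cells with TRIzol and sequenced, per the labels' protocols. The authors deposited, for each library, log2 RPKM values of 23040 genes, on the build hg19 (per the submitters' processing notes). An aligner, a gene counter and the use of strand were not given in the sources used here. RPKM was recovered from the deposited log2 values, and the lowest deposited value, -8.966 (0.002 RPKM), was read as 0. RPKM does not hold counts, so tests ran on log2(RPKM + 1), which understates the change of low genes, for the 13427 genes that reached 1 RPKM in 2 or more libraries. The depth was estimated from the steps between low values, which were whole within 0.1 read for 100% of the values examined. Since RPKM is relative to all reads of a library, a change in a few abundant genes moves all others.

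limma 3.58.1 (R 4.3.3) with a trended variance gave all adjusted p-values, by Benjamini-Hochberg over all genes tested, with a threshold of 0.05. A first fit over 14 libraries, with line as a term, compared each condition with mock, and Panc-1 with AsPC-1. A second compared EGF with ANG over 6 pairs of line and time. Comparisons between lines are reported for the 11107 genes that reached 1 RPKM in 2 or more libraries of each line. A last fit compared 24 h with the mean of 1 h and 5 h over 4 courses (line and factor). Its spread was how these courses differed over time, and both lines shared it. Rises and falls are in log2(RPKM + 1) ± SE. The tests were tried on simulated data.

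All 32 genes are named, with each library's value for those past the threshold in any contrast or at least 4-fold apart within a line, and with the range for the others where levels were near 0. Other lists are given as counts, with up to 4 genes named among those past the threshold. The named genes were not in every case those with the largest change. The 32 genes and the lists were chosen with earlier results of these data known. Alternatives were a pseudocount of 0.1, no filter, a filter of 5 RPKM, median-centred libraries, rescaling over genes of at least 400 bases, and leaving out each library. Promoter sequences came from RefSeq on GRCh38.p14, matched by symbol, and no coordinates were carried between builds.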

Additional observations from a re-analysis of the deposited data

Results flagged for a closer look

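The 24 h change differed between the lines for 25 of the 29 genes that reached 1 RPKM in at least 2 libraries of each line, by limma's test of the difference itself. The values are the change in Panc-1 minus that in AsPC-1, each change being 24 h minus the mean of 1 h and 5 h in log2(RPKM + 1). Among the stress regulators the difference was -4.56 for TRIB3, -4.53 for SESN2, -3.79 for CHAC1, -2.63 for DDIT3, -2.58 for ATF3, -1.58 for ATF4, -0.94 for DDIT4 and -0.80 for ATF5. Among the synthesis enzymes it was -2.22 for MTHFD2, -2.19 for PSPH, -1.96 for PSAT1 and -1.34 for SHMT2. Among the transporter genes it was -2.67 for SLC7A11, -1.36 for SLC7A1 and -0.54 for SLC3A2. Among the tRNA synthetases it was -1.73 for CARS, -1.73 for TARS, -1.64 for GARS, -1.24 for YARS, -1.10 for AARS, -0.99 for MARS, -0.94 for EPRS, -0.62 for NARS, -0.54 for IARS and -0.41 for LARS. Of the 25 calls, 18 held with each treated library left out in turn. Those lost at least once were DDIT4, SLC3A2, AARS, IARS, LARS, MARS and NARS. With 1 library a group, single libraries could not be tested for standing apart from their group. Over the same libraries the summed level of 12 genes of the G2 and M phases ran in the same directions, and their part in the difference was not tested.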

How the results depend on the processing

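No paired analysis was possible because each group is 1 library and the labels give no replicate numbers that groups share; the pairs behind EGF against ANG and Panc-1 against AsPC-1 were matched by condition only. With 1 library left out in turn, the number of members past the threshold ranged from 8 to 25 for 24 h against 1 h and 5 h in Panc-1 (18 with all libraries), from 20 to 22 in AsPC-1 (22), from 18 to 28 for the difference between lines (25), from 2 to 3 over both lines (2) and from 18 to 26 for Panc-1 against AsPC-1 (22). It ranged from 0 to 1 for EGF 1 h against mock, from 0 to 2 for EGF 5 h against mock, and was 0 in every leave-out of the other comparisons. Over the other settings the count was 13 to 20 in Panc-1, 20 to 23 in AsPC-1 and 20 to 25 for the difference between lines. At EGF 5 h against mock it was 0 with no filter and 2 without the 24 h libraries, against 1. EGF against ANG in AsPC-1 gave 1 with the filter of 5 RPKM and 1 with median-centred libraries, against 0, and the added 24 h contrast in AsPC-1 gave 1 with the filter of 5 RPKM, against 0. The causes were not tested. No call of a single member changed sign under any alternative. Over all alternatives, calls of single members were lost in 58 of 306 cases in Panc-1, 24 of 374 in AsPC-1, 43 of 425 for the difference, 38 of 440 for Panc-1 against AsPC-1, 13 of 20 for EGF 5 h against mock and 0 of 34 over both lines. Centring moved the median of the members over both lines at 24 h to -0.002, against 0.063, and the median of all genes for Panc-1 against AsPC-1 by -0.10. With no repeat of a condition within a line, an effect of a single library and an effect of its condition cannot be told apart.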
